A study of Mus musculus with 7 samples.

Results

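The intercalated disc is the specialised border at which cardiomyocytes are joined end to end. Its desmosomes tie the intermediate filaments of neighbouring cells together, its adherens junctions anchor the actin of the last sarcomere, and its gap junctions pass current and small molecules from cell to cell. In the adult ventricle these structures are partly merged, and inherited defects of desmosomal genes are known for arrhythmogenic cardiomyopathy. Transcripts of 10 disc genes were examined in mouse left ventricle: the desmosomal genes Dsp, Jup, Pkp2, Dsg2 and Dsc2, the adherens junction genes Cdh2 and Ctnna3, the gap junction gene Gja1, and the Xin repeat genes Xirp1 and Xirp2. They were taken by name from the 20927 genes of the count table, and each of the 10 was found as 1 entry.

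The study asked how a missense change in titin, A178D, alters the heart. RNA was sequenced from left ventricles of 3 wild-type (WT) mice, numbered 1, 3 and 4, and 4 mice homozygous for A178D, numbered 1 to 4. Both groups were on the C57BL/6J background. The change was introduced into C57BL/6N embryonic stem cells with Cas9, and the line was then crossed to C57BL/6J for several generations. The repair template also carried a silent change in Ttn, which made a restriction site for genotyping. No other allele or treatment was given for either group. The age and sex of the sequenced mice were not given in the sources used here. Each library stood for 1 heart.

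The WT libraries held 51797208, 54245530 and 41102868 counts for replicates 1, 3 and 4. The A178D libraries held 40623300, 52345529, 42174448 and 33080675 counts for replicates 1 to 4, so that A178D replicate 4 was the shallowest. The least counted value of any of the 10 genes was 800 counts, for Ctnna3 in that library. Levels are given as CPM, the counts scaled to a common library size after adjustment by the trimmed mean of M values.

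The tissue label was checked against markers. Myh6, the main myosin heavy chain of the adult mouse ventricle, was the most abundant of 10 cardiomyocyte markers, at 39989 ± 1515.0 CPM in WT (SD, n = 3) and 37163 ± 1454 CPM in A178D (SD, n = 4). The atrial genes Myl7 and Sln did not exceed 0.152 CPM in any heart, and Bmp10 was at 0 in all 7. The other atrial markers were low: Dkk3 did not exceed 3.81 CPM, and Myl4, named after its values were seen, did not exceed 4.01 CPM. For Myl4 the genotypes did not overlap, with every A178D heart the higher, as in 7.61% of all tested genes. Its log2 fold change of 0.65 (SE 0.23) gave an adjusted p of 0.171 in edgeR. Ttn itself was at 6659 ± 521 CPM in WT (SD, n = 3) and 5528 ± 1072 CPM in A178D (SD, n = 4), a level that cannot check a change of 1 amino acid. Acta1, the skeletal actin of the foetal heart, was higher in A178D, with a log2 fold change of 2.64 (SE 0.29) and an adjusted p of 0.000651 in the quasi-likelihood test of edgeR after Benjamini-Hochberg adjustment. Nppa, which encodes atrial natriuretic peptide, was also higher, with a log2 fold change of 1.31 (SE 0.24) and an adjusted p of 0.0146 in the same edgeR test. With each library left out in turn, Acta1 was called in 7 of 7 fits. Nppa was called in 4 of the 7, and its call was lost without WT replicate 3, WT replicate 4 or A178D replicate 1, with an adjusted p of up to 0.0860 in edgeR.

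All 10 disc genes were well expressed, and they were ordered by CPM per kilobase of the longest annotated transcript, averaged over the 7 hearts. Dsp, the plakin that links the desmosomal plaque to desmin filaments, stood first at 196 CPM per kb and held 26.6% of the sum over the 10 genes. Jup, which encodes plakoglobin, followed at 114 CPM per kb, and Gja1, which encodes connexin 43, at 111 CPM per kb. Jup and Gja1 did not differ beyond their spread, since Jup was the higher of the pair in 4 of the 7 hearts.

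A group of 4 genes came next with overlapping ranges. Cdh2, the classical cadherin of the disc, was at 68.1 CPM per kb, and Pkp2, the plakophilin of the cardiac desmosome, was at 67.2 CPM per kb. Xirp2 was at 66.0 CPM per kb and Xirp1 at 63.6 CPM per kb. No neighbours among these 4 were separated in every heart, and each of the 4 was above the genes that follow in all 7.

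The desmosomal cadherins Dsg2 and Dsc2 were lower, at 26.6 and 15.5 CPM per kb, and Ctnna3 was the lowest at 10.3 CPM per kb. Dsg2 was above Dsc2, and Dsc2 above Ctnna3, in 7 of 7 hearts. The order between Dsp and Dsg2, places 2 and 3 included, rests on the length used. A second length, all annotated exons together, was chosen after seeing the data. Per kilobase of it, Xirp2 took place 2 at 66.0 CPM per kb and Xirp1 place 3 at 63.6 CPM per kb. Jup took place 4 at 56.6 CPM per kb and Gja1 place 5 at 42.0 CPM per kb. Dsp stayed first, and Dsg2, Dsc2 and Ctnna3 kept places 8, 9 and 10.

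**Figure D1:**
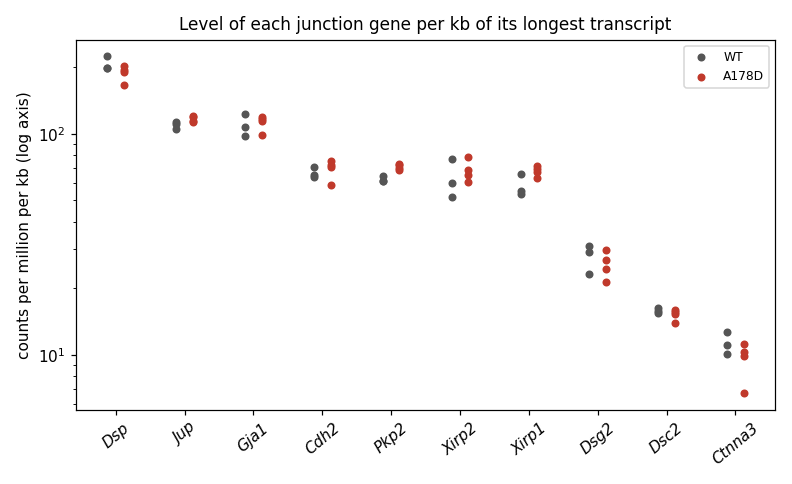
Level of each disc gene in CPM per kb of its longest transcript (log axis), with 1 point per heart, grey for WT (n = 3) and red for A178D (n = 4). Dsp is highest at a mean of 196, Ctnna3 lowest at 10.3, and Cdh2, Pkp2, Xirp2 and Xirp1 overlap between 51.7 and 78.6.

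All 10 genes passed the filter of at least 10 counts in at least 3 libraries. None of the 10 passed an adjusted p of 0.05 between A178D and WT in the quasi-likelihood test of edgeR after Benjamini-Hochberg adjustment over all 13894 tested genes, against 2.35% of tested genes called (327, with 145 up and 182 down in A178D). DESeq2 and limma-voom also called 0 of the 10, while 1 of the 10, Xirp1, was called by edgeR with offsets for transcript length and GC content and 1, again Xirp1, without WT replicate 1. At an unadjusted p under 0.05, edgeR gave 2 of the 10, Pkp2 and Xirp1, beside 16.7% of all tested genes. The lowest A178D heart exceeded the highest WT heart for 2 of the 10, Pkp2 and Jup, beside 7.61% of tested genes, and the highest A178D heart stayed under the lowest WT heart for 0 of the 10, beside 8.52%. These shares are small counts of 10 and are not read as particular to disc genes. The log2 fold change was above 0 in 6 of the 10, with a median of 0.05, beside a median of 0.00 over all tested genes. The median size of the change regardless of direction was 0.11 for the 10 genes and 0.12 for all tested genes.

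The number of genes called over the whole table moved with single libraries. It was 453 without WT replicate 1, 53 without WT replicate 3, 82 without WT replicate 4, 90 without A178D replicate 1, 216 without A178D replicate 2, 190 without A178D replicate 3 and 369 without A178D replicate 4. DESeq2 called 666 genes, and 494 were called with offsets for how counts of a library depend on the length and GC content of transcripts.

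**Figure D2:**
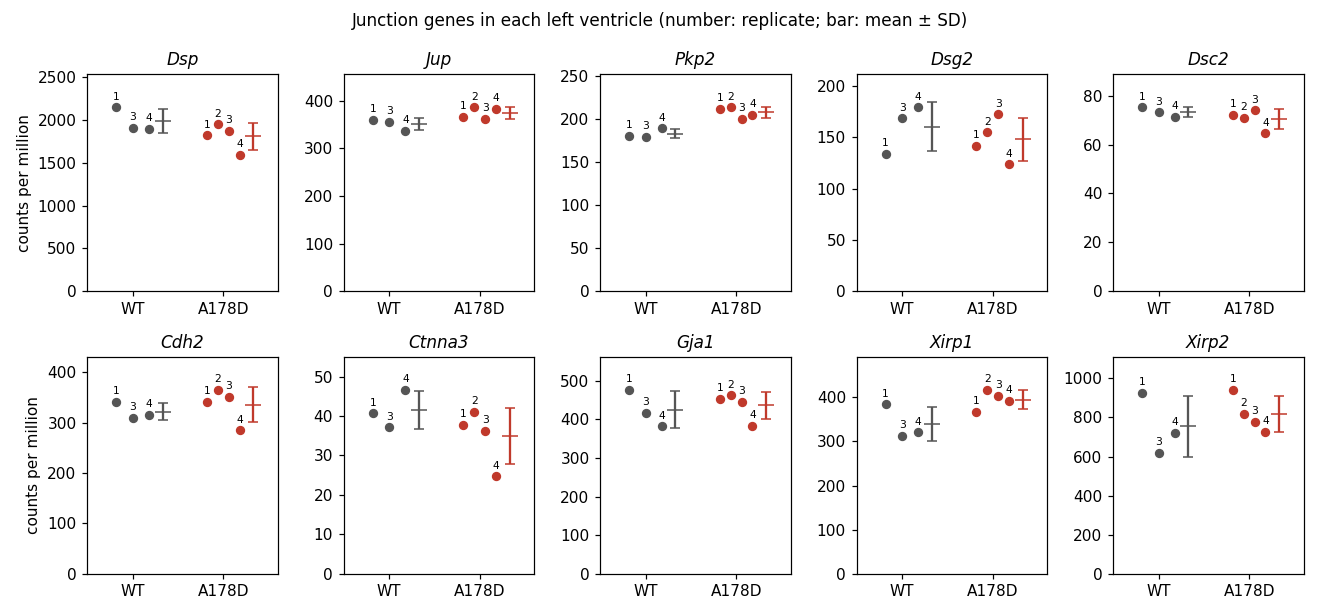
CPM of each disc gene in each left ventricle, with 1 point per heart labelled by replicate number and a bar for the mean ± SD of 3 WT and 4 A178D hearts. The genotypes do not overlap for Jup and Pkp2, and A178D replicate 4 is the lowest A178D heart for 7 of the 10 genes.

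Among the desmosomal genes, Dsp was at 2146, 1907 and 1896 CPM in WT replicates 1, 3 and 4. In A178D replicates 1 to 4 it was at 1820.2, 1947, 1868 and 1589 CPM. A178D replicate 2 lay within the WT range and the other A178D hearts below it, so that the genotypes overlapped. The log2 fold change was -0.13 (95% interval -0.30 to 0.03), with an adjusted p of 0.419 in the quasi-likelihood test of edgeR after Benjamini-Hochberg adjustment. The Dsp transcript is long, at 9.59 kb, and the levels of long transcripts differed between libraries. Over the 818 tested genes with a transcript of at least 8 kb, the median deviation from a gene's mean over the 7 hearts was 0.13 on the log2 scale in WT replicate 1 and -0.26 in A178D replicate 4. Without either of these libraries the Dsp value was -0.07 (WT replicate 1) or -0.08 (A178D replicate 4). With the length and GC offsets the Dsp value was -0.04 (95% interval -0.14 to 0.06). The part of these library trends in the Dsp value was not tested further.

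Jup encodes plakoglobin, the armadillo protein found in desmosomes and adherens junctions alike. It was at 361, 356 and 337 CPM in WT replicates 1, 3 and 4, and at 366, 387, 363 and 383 CPM in A178D replicates 1 to 4. All A178D hearts lay above all WT hearts, by a small margin. Between genotypes the log2 fold change was 0.09 (95% interval -0.04 to 0.23), and edgeR with Benjamini-Hochberg adjustment gave an adjusted p of 0.501. Jup varied little within a genotype, with a coefficient of variation of 3.58% in WT and 3.19% in A178D.

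Pkp2 encodes plakophilin 2, which joins the desmosomal cadherins to Dsp. It was at 180.1, 179 and 189 CPM in WT replicates 1, 3 and 4, and at 212, 213, 199.99 and 205 CPM in A178D replicates 1 to 4. The genotypes did not overlap, and the gap between the highest WT and the lowest A178D heart exceeded the SD of either group (5.44 and 6.20 CPM). Its log2 fold change was 0.18 (95% interval 0.04 to 0.32), with an adjusted p of 0.169 in the quasi-likelihood test of edgeR after Benjamini-Hochberg adjustment. Over the alternative settings the adjusted p of Pkp2 lay between 0.0756 and 0.407, so that the difference passed the threshold under none of those tried, and its sign was the same in each.

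Dsg2 and Dsc2 encode desmoglein 2 and desmocollin 2, the cadherins that bridge the gap between desmosomes of adjoining cells. Dsg2 was at 134, 169 and 179 CPM in WT replicates 1, 3 and 4, and at 142, 155, 172 and 124 CPM in A178D replicates 1 to 4. Both genotypes covered much the same range, with WT replicate 1 low among WT and A178D replicate 4 low among A178D. Its log2 fold change was -0.12 (95% interval -0.36 to 0.13), with an adjusted p of 0.652 in edgeR after Benjamini-Hochberg adjustment. Single hearts moved this value: it was -0.23 without WT replicate 1, -0.03 without WT replicate 4, -0.20 without A178D replicate 3 and -0.04 without A178D replicate 4.

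Dsc2 was at 75.2, 73.2 and 71.3 CPM in WT replicates 1, 3 and 4, and at 72.2, 71.0, 73.9 and 64.6 CPM in A178D replicates 1 to 4. The genotypes overlapped, and A178D replicate 4 alone fell clearly under the others. Its log2 fold change was -0.06 (95% interval -0.21 to 0.10), with an adjusted p of 0.743 in edgeR after Benjamini-Hochberg adjustment, and it was -0.03 without WT replicate 1 and -0.02 without A178D replicate 4. Dsg2, Dsc2 and Cdh2 lie on chromosome 18, where many cadherin genes are clustered, and Dsp lies on chromosome 13, Jup on 11 and Pkp2 on 16 (GRCm38).

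In the adherens junction, Cdh2 encodes N-cadherin, whose tail binds the catenins that hold actin. It was at 342, 309.7 and 316 CPM in WT replicates 1, 3 and 4, and at 342, 365, 351 and 285 CPM in A178D replicates 1 to 4. The A178D hearts spanned the whole WT range, with replicate 4 under every WT heart and replicates 1, 2 and 3 over every WT heart, replicate 1 by less than 1 CPM. For Cdh2 the log2 fold change was 0.06 (95% interval -0.12 to 0.24), with an adjusted p of 0.775 in the quasi-likelihood test of edgeR after Benjamini-Hochberg adjustment. This value was 0.02 without A178D replicate 2 and 0.13 without A178D replicate 4.

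Ctnna3 encodes alpha-T-catenin, an alpha-catenin largely of heart and testis that also binds Pkp2. It was at 40.7, 37.1 and 46.6 CPM in WT replicates 1, 3 and 4, and at 37.8, 41.0, 36.2 and 24.7 CPM in A178D replicates 1 to 4. The genotypes overlapped, with A178D replicate 3 just under the WT range and A178D replicate 4 the lowest heart by a wide margin. Its log2 fold change was the lowest of the 10, at -0.24 (95% interval -0.54 to 0.05), with an adjusted p of 0.408 in edgeR after Benjamini-Hochberg adjustment. Without A178D replicate 4 the value was -0.11, and without WT replicate 4 it was -0.15. Ctnna3 also had the largest coefficient of variation of the 10 in A178D, 20.4%.

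In the gap junction, Gja1 encodes connexin 43, the main channel protein between ventricular myocytes. It was at 476, 416 and 382 CPM in WT replicates 1, 3 and 4, and at 452, 462, 444 and 383 CPM in A178D replicates 1 to 4. Every A178D heart lay within the WT range. For Gja1 the log2 fold change was 0.04 (95% interval -0.15 to 0.22), with an adjusted p of 0.880 in the quasi-likelihood test of edgeR after Benjamini-Hochberg adjustment, and over the fits without 1 library it ran from -0.03 (without WT replicate 4) to 0.13 (without WT replicate 1). Gja1 is also transcribed outside cardiomyocytes, and in whole ventricle fewer cells of a type and less RNA per cell cannot be told apart.

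The Xin repeat proteins bind actin and, at the disc, beta-catenin and N-cadherin. Xirp1, which encodes Xin, was at 384, 313 and 321 CPM in WT replicates 1, 3 and 4. In A178D replicates 1 to 4 it was at 368, 417, 403 and 393 CPM. A178D replicates 2, 3 and 4 lay above every WT heart, while A178D replicate 1 lay below WT replicate 1, which stood apart from the other WT hearts. The log2 fold change was the highest of the 10, at 0.22 (95% interval 0.05 to 0.40), with an adjusted p of 0.191 in the quasi-likelihood test of edgeR after Benjamini-Hochberg adjustment. Xirp1 was called under 2 of the 17 alternatives. Without WT replicate 1 the log2 fold change was 0.32 with an adjusted p of 0.0360 in edgeR, and with the length and GC offsets it was 0.27 with an adjusted p of 0.0377 in edgeR. Over all alternatives the adjusted p of Xirp1 ranged from 0.0360 to 0.483.

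Xirp1 lies on chromosome 9 from 120013755 to 120023598 on the minus strand, within the span of a long annotated transcript of Cx3cr1 on the same strand, with which it shares 0 exonic bases. Cx3cr1, named here after its values were seen, encodes the fractalkine receptor of monocytes and macrophages. It was at 2.96 ± 0.78 CPM in WT (SD, n = 3) and 6.93 ± 1.21 CPM in A178D (SD, n = 4). It was called higher in A178D, with a log2 fold change of 1.23 (SE 0.19) and an adjusted p of 0.00650 in edgeR after Benjamini-Hochberg adjustment, and without WT replicate 3 the adjusted p was 0.0530. How reads of this region were divided between both genes was not tested.

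Xirp2, which encodes Xin repeat protein 2, also called myomaxin, had the longest transcript of the 10, at 11.98 kb. It was at 925, 619.9 and 719.9 CPM in WT replicates 1, 3 and 4, and at 942, 819, 779 and 728 CPM in A178D replicates 1 to 4. WT replicate 1 lay among the highest hearts and the other WT hearts below all A178D hearts, so that the genotypes overlapped through that heart. The log2 fold change was 0.11 (95% interval -0.14 to 0.37), with an adjusted p of 0.673 in edgeR after Benjamini-Hochberg adjustment, and it was -0.01 without WT replicate 3 and 0.29 without WT replicate 1. With the length and GC offsets it was 0.26 (95% interval 0.03 to 0.50), with an adjusted p of 0.214 in edgeR. Xirp2 varied most of the 10 among WT hearts, with a coefficient of variation of 20.6%.

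**Figure D3:**
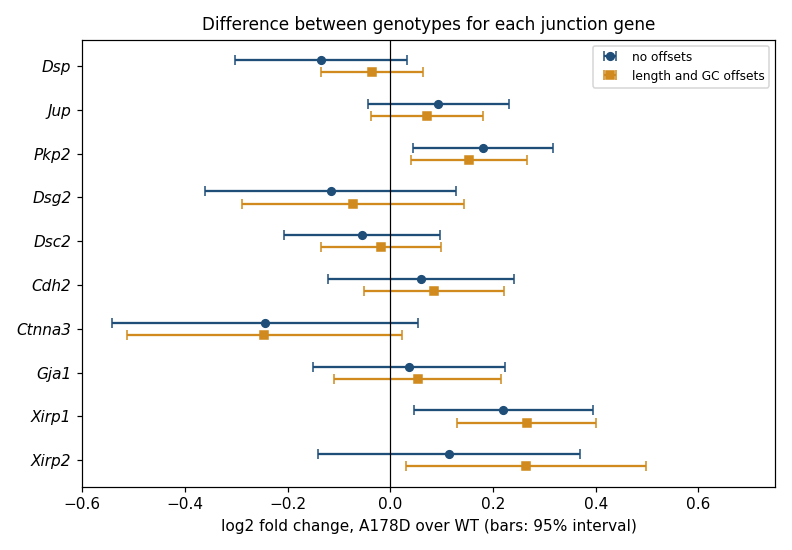
Log2 fold change of each disc gene, A178D over WT, with its 95% interval from edgeR, without offsets (circles) and with offsets for each library's length and GC trend (squares). With the offsets Dsp moves from -0.13 to -0.04, Xirp2 from 0.11 to 0.26, and the interval of Xirp1 runs from 0.13 to 0.40.

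The 10 genes were also read heart by heart. A178D replicate 4 was the lowest A178D heart for 7 of the 10 genes (Dsp, Dsg2, Dsc2, Cdh2, Ctnna3, Gja1 and Xirp2), and the lowest of all 7 hearts for 5. WT replicate 1 was the highest WT heart for 7 of the 10 (Dsp, Jup, Dsc2, Cdh2, Gja1, Xirp1 and Xirp2), and A178D replicate 2 was the highest A178D heart for 7. The summed level of the 10 genes was 5063, 4380 and 4458 CPM in WT replicates 1, 3 and 4, and 4753, 4879, 4691 and 4178 CPM in A178D replicates 1 to 4. The sums overlapped between genotypes, with means of 4633 ± 374 CPM in WT (SD, n = 3) and 4625 ± 308 CPM in A178D (SD, n = 4).

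Ratios of paired genes were compared within each heart, which sets library size aside. The log2 ratio of Ctnna3 to Ctnna1, the alpha-catenin of most cells, was -3.95, -4.07 and -3.73 in WT replicates 1, 3 and 4, and -3.94, -3.86, -4.01 and -4.51 in A178D replicates 1 to 4. The ratios overlapped apart from the low value of A178D replicate 4, and the difference of -0.16 gave an adjusted p of 0.743 over the 3 ratios in a two-sided exact permutation test. With 3 against 4 hearts this test cannot give a p below 0.0286.

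The log2 ratio of Xirp2 to Xirp1 was 1.27, 0.99 and 1.17 in WT replicates 1, 3 and 4, and 1.36, 0.97, 0.95 and 0.89 in A178D replicates 1 to 4. A178D replicate 1 was above every WT heart and the other A178D hearts below them. The difference of -0.10 had an adjusted p of 0.743 in the exact permutation test, and it was 0.00 once the length and GC trend of each library was removed. The log2 ratio of Dsc2 to Dsg2 was -0.83, -1.21 and -1.33 in WT replicates 1, 3 and 4, and -0.97, -1.13, -1.22 and -0.94 in A178D replicates 1 to 4. All A178D hearts lay within the WT range, with a difference of 0.06 and an adjusted p of 0.743 in the exact permutation test. Without WT replicate 4 this difference was -0.05.

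The disc holds further proteins, and 64 genes in 4 related lists were read from the same fit. Of these 41 were tested, and 1 was called higher and 0 lower in A178D by edgeR, with 12 at an unadjusted p under 0.05. Over all tested genes edgeR called 2.35%, and 16.7% had an unadjusted p under 0.05. The count was 5 by DESeq2 (Popdc3, Tmem43, Ppl, Arvcf and Nectin3) and 5 with the length and GC offsets (Popdc3, Flnc, Fgf13, Perp and Arvcf); Tmem43, Flnc, Fgf13 and Perp are named after their values were seen. It was 2 without WT replicate 1 and 0 without any other single library.

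Of 13 other desmosome genes, 4 were tested and 0 called, with a median log2 fold change of -0.21, and the 9 not tested stayed at or under 0.443 CPM. These 9 include the desmogleins and desmocollins of the skin, so that Dsg2 and Dsc2 were the only desmosomal cadherins of the lists that were tested. Pkp4, a plakophilin relative, was the most abundant of this list by its mean over the 7 hearts, though below Perp in WT (156 ± 8.18 CPM; SD, n = 3), at 150.04 ± 9.07 CPM in WT (SD, n = 3) and 150.2 ± 2.52 CPM in A178D (SD, n = 4), with the highest log2 fold change of 0.00. Ppl, which encodes periplakin, had the lowest, -0.55 (SE 0.17), with an adjusted p of 0.109 in edgeR.

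Of 14 other adherens junction genes, 13 were tested and 0 called, with a median log2 fold change of -0.03. Ctnna1 was the most abundant, at 624 ± 4.26 CPM in WT (SD, n = 3) and 580.5 ± 14.2 CPM in A178D (SD, n = 4), with a log2 fold change of -0.10. Arvcf, a catenin of the p120 family, had the highest at 0.30 (adjusted p 0.0813 in edgeR), and its counts are shared with a second entry of the table, so that its identity is uncertain. Nectin3, an adhesion receptor, had the lowest at -0.52 (adjusted p 0.0933 in edgeR). Of 20 other gap junction genes, 7 were tested and 0 called, and 13 stayed at or under 0.248 CPM in every heart. Gjc1, which encodes connexin 45, was the most abundant of them, at 23.8 ± 2.47 CPM in WT (SD, n = 3) and 22.0 ± 0.96 CPM in A178D (SD, n = 4). Its log2 fold change was -0.11, and the lowest of the list was that of Gja4 at -0.14 (SE 0.12).

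All 17 genes for disc linkers, scaffolds and channels were tested, with a median log2 fold change of 0.06, and 1 was called. Popdc3, a membrane protein of the Popeye family that binds cyclic AMP, was at 19.5, 23.6 and 20.7 CPM in WT replicates 1, 3 and 4, and at 27.5, 28.0, 25.5 and 30.3 CPM in A178D replicates 1 to 4. The genotypes did not overlap, and the log2 fold change was 0.39 (SE 0.09) with an adjusted p of 0.0489 in the quasi-likelihood test of edgeR after Benjamini-Hochberg adjustment. This call was lost in each of the 7 fits without 1 library, with adjusted p from 0.0627 to 0.169 in edgeR. Des, the desmin filament that Dsp holds, was the most abundant of the list, with a log2 fold change of 0.08 (SE 0.08), and Kcnj2 had the lowest, -0.22 (SE 0.12).

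Markers of the cell types in the ventricle were read beside the disc genes. Over the whole table edgeR called 327 of 13894 tested genes (2.35%), DESeq2 called 666 and the offsets gave 494. Of 10 cardiomyocyte markers, 1 was called, Mybpc3 with a log2 fold change of 0.30 (adjusted p 0.0230 in edgeR), and the list summed to 108281 ± 3181 CPM in WT (SD, n = 3) and 107927 ± 4577 CPM in A178D (SD, n = 4). Of 8 smooth muscle and pericyte markers 4 were called, all lower in A178D: Acta2 at -0.59, Myh11 at -0.67, Tagln at -0.62 and Cnn1 at -0.82. The 8 genes summed to 1327, 1358 and 1332 CPM in WT replicates 1, 3 and 4. In A178D replicates 1 to 4 they summed to 1035, 1124, 1194 and 948 CPM. The most abundant, Abcc9, was not called and made a large part of these sums. It was at 599 ± 28.1 CPM in WT (SD, n = 3) and 542 ± 81.4 CPM in A178D (SD, n = 4), with its lowest value, 426 CPM, in A178D replicate 4. DESeq2 called 6 of these 8, and 6 were called with the length and GC offsets. Of 8 fibroblast markers 1 was called, Col3a1 at 0.62, and the most abundant, Dcn, was at 0.00, while DESeq2 called 2 and the offsets gave 3. The fibroblast list summed to 1178, 1205 and 1090.2 CPM in WT replicates 1, 3 and 4 and to 1407, 1332, 1277 and 1297 CPM in A178D replicates 1 to 4, with no overlap between genotypes. Of 8 macrophage markers 1 was called, Lyz2 at 0.40, which was also the most abundant, and DESeq2 and the offsets each gave 1. The macrophage sums overlapped, at 277, 359 and 328 CPM in WT replicates 1, 3 and 4 and 387, 395, 351 and 391 CPM in A178D replicates 1 to 4.

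With each library left out in turn, Acta2 and Tagln were called in 7 of 7 fits. Myh11 was called in 5 (not without WT replicate 3 or 4), Col3a1 in 3 (not without WT replicate 3 or A178D replicate 1, 2 or 3) and Mybpc3 in 3 (not without WT replicate 3, WT replicate 4, A178D replicate 1 or A178D replicate 3). Lyz2 was called in 2 (without A178D replicate 3 or 4) and Cnn1 in 1 (without A178D replicate 4). By edgeR no gene was called among 8 endothelial markers (led by Fabp4), 5 conduction system markers (led by Cacna1g), 5 atrial markers (led by Dkk3 over the 7 hearts, though by Myl4 in A178D), 8 epicardial markers (led by Wt1) or 7 skeletal muscle markers (led by Tnni2). DESeq2 also called none of these, while the length and GC offsets gave 1 call, Cntn2 of the conduction system list, which is named after its values were seen. Its log2 fold change was 1.36 (SE 0.35), with an adjusted p of 0.0655 in edgeR without offsets, and over the 7 fits without 1 library it was called in 1, without A178D replicate 4. In every heart 7 of the epicardial and 4 of the skeletal muscle markers were under 0.5 CPM, including the fast myosins Myh1, Myh2 and Myh4. The part of these cell types in the values of the disc genes was not tested.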

How the data were processed

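Left ventricles of 3 WT and 4 A178D mice were each sequenced as 1 stranded poly(A) library. The authors deposited raw counts per gene, which were used without change of unit; their submitted processing notes name bcl2fastq 2.18.0.12, HISAT2 2.1.0, SAMtools 1.6, DESeq2 1.26.0 and GRCm38, and the counting program and its use of strand are not given in the sources used here. A second deposited table, of values scaled with DESeq2, was not used. Few low counts were odd (17.6 to 20.3% of counts from 1 to 20), as where both ends of a fragment are counted. Identifiers were matched to GENCODE M21, which named 20989 of 21257 entries. The 442 entries in 219 sets with identical counts and at least 30 counts were reduced to 1 each (223 removed), and 107 exact repeats (the identifier and all counts alike) among less counted entries were removed, leaving 20927 genes. Transcripts annotated on the opposite strand share 499 exonic bases with Dsp, 330 with Dsg2 and 168 with Xirp2.

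Counts were tested with edgeR 4.0.16 in R 4.3.3 (TMM, glmQLFit and glmQLFTest, genes that reached 10 counts in 3 or more libraries, adjusted p under 0.05), and ratios with exact permutation tests in scipy 1.17.1. Intervals are 95% confidence intervals of the log2 fold change between genotypes, from its standard error in the fit. They do not give the range of single hearts. Alternatives were DESeq2 1.42.0 with its Wald test, its size factors in edgeR, limma-voom (limma 3.58.1), no filter, at least 10 counts in every library, the table with every entry, halved counts, the replicate number as a block, length and GC offsets (mgcv 1.9.3) alone and with the block, an adjusted p under 0.01, a pseudocount of 0.5 for ratios, and leaving out each library. The steps were tested on simulated data.

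Genes named are the 10 disc genes, Ttn, Acta1 and Nppa, in each related list every called gene and the highest, lowest and most abundant, and in each cell type list the most abundant, the called and those at or near 0. A gene that this rule names is not reported here. The members and lists were chosen with earlier results of these data known.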

Additional observations from a re-analysis of the deposited data

Results flagged for a closer look

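In groups of 4 hearts, a value was picked out where its gap to the nearest other heart, as a share of the group's range, exceeded Dixon's 95% critical value. Of 42 sets of A178D values examined (the 10 disc genes, the 3 ratios and the other genes named by the rule), 2 met this, while chance picks about 1 in 20. None of the 10 disc genes and none of the 3 ratios was among them. Dcn was at 646 CPM in A178D replicate 1, against 555 to 562 CPM in the other A178D hearts. Col3a1 was at 324 CPM in A178D replicate 2, against 303 to 306 CPM in the others.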

How the results depend on the processing

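Of 170 values of the 10 disc genes under alternative settings, 165 kept the direction and the side of the threshold of the reported fit, 3 became calls and 2 changed sign. The calls were Xirp1 with length and GC offsets (0.27) and without WT replicate 1 (0.32), and Xirp2 with the replicate block and the offsets together (0.31, adjusted p 0.0455 in edgeR, over a range of 0.0455 to 0.980 among its alternatives). The changes of sign were Xirp2 without WT replicate 3 (-0.0095, with 0.2887 as the highest without 1 library) and Gja1 without WT replicate 4 (-0.0343, with 0.1294 as the highest). The number of the 10 genes called was accordingly 1 with the offsets and 1 with the block and offsets, and 0 to 1 over the fits without 1 library. The genes called over the whole table were 327, against 666 by DESeq2, 494 with the offsets, 64 at an adjusted p under 0.01, and 53 to 453 without 1 library. The related lists gave 1 call, against 5 by DESeq2, 5 with the offsets, 0 with the replicate block, 0 at an adjusted p under 0.01 and 0 to 2 without 1 library; for these lists the block and the stricter threshold were chosen after seeing the data.

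Nothing in the labels showed that the replicate numbers pair the samples. Hearts sharing a number had correlations of 0.02, -0.08 and -0.08 between their deviations. Those with different numbers had correlations from -0.13 to 0.14, so that these few values cannot decide whether the numbers pair the hearts. Xirp1 was not called with the replicate block and the offsets together (adjusted p 0.0860 in edgeR). With the replicate block 271 genes were called in all and 0 of the 10, and the block takes A178D replicate 2 out of the comparison. Between hearts sharing a number the log2 ratios differed by -0.23 (Ctnna3 to Ctnna1), -0.07 (Xirp2 to Xirp1) and 0.08 (Dsc2 to Dsg2). The ratio of Xirp2 to Xirp1 was 0.0013 with the trend removed, a change of sign, and -0.20 to -0.03 without 1 heart. That of Dsc2 to Dsg2 was -0.0456 without WT replicate 4 and ranged up to 0.20, and that of Ctnna3 to Ctnna1 from -0.24 to -0.02. The causes of these shifts were not tested. Each of the 10 genes had at least 800 counts in each library.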
